A study of Mus musculus with 9 samples.

Results

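The genes described here encode 9 secreted colony-stimulating and growth factors: Csf1, Csf2, Il3, Lif, Vegfa, Areg, Hbegf, Pdgfa and Tgfb1. They were chosen by symbol from the 47643 Ensembl genes in the counts, through their identifiers in the GENCODE annotation. RNA was measured in bone marrow-derived mast cells (BMMCs), which are mast cells grown from the marrow of C57BL/6 mice for at least 4 weeks. All cultures received medium conditioned by WEHI-3 cells, a mouse line that secretes IL-3. IL-3 protein was therefore supplied in every group, Control included. The study asked how luteolin, a plant flavonoid, alters RNA levels in mast cells activated through IgE. The 3 libraries of Control came from untreated cells. The 3 libraries of IgE+BSA came from cells loaded with IgE against the hapten DNP and stimulated with DNP-coupled albumin, the antigen that crosslinks the receptor-bound IgE. The 3 libraries of IgE+BSA+Luteolin came from cells stimulated in the same way that also received luteolin. The labels give 10 µM luteolin for 24 h in 1 text repeated for every sample, Control included, and the sources used here place luteolin before stimulation in one passage and after it in another. Nothing states whether replicates came from separate mice or cultures, so the p-values measure the spread between these libraries, which may be technical.

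Mast cells release stored mediators within minutes of IgE crosslinking and then transcribe cytokine and growth factor genes. IL-3 and GM-CSF (encoded by Csf2) drive the survival and growth of myeloid cells and signal through a shared receptor beta subunit, whereas M-CSF (Csf1) acts on macrophages through its own receptor. LIF belongs to the IL-6 cytokine family, VEGF-A drives blood vessel growth, amphiregulin (Areg) and HB-EGF (Hbegf) are membrane-anchored ligands of the EGF receptor, PDGF-A acts on mesenchymal cells, and TGF-beta 1 restrains immune responses and drives matrix production.

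Depth was 9515004 to 24605689 counts per library, so that 3 counts correspond to 0.122 to 0.315 CPM (counts scaled to a common library size), for counting error only. The mast cell markers Kit (1749 to 2481 CPM), Fcer1a (4367 to 6879 CPM) and Cpa3 (23040 to 33660 CPM) were abundant in all 9 libraries, as the label BMMC states. Markers of other myeloid cells separated Control replicates 2 and 3 from the other 7 libraries. Summed over 7 neutrophil markers, Control replicates 2 and 3 had 7.07 and 5.69 CPM, while Control replicate 1 had 216 CPM, IgE+BSA 145 to 159 CPM and IgE+BSA+Luteolin 168 to 199 CPM. The basophil protease Mcpt8 had 21.8 and 18.7 CPM in Control replicates 2 and 3 and 292 to 432 CPM in the others, whereas the other basophil marker, Prss34, had 650.5 and 611 CPM there and 513 to 759 CPM in the others. Of the 4 eosinophil markers, the granule gene Prg2 had 0.0969 and 0 CPM in Control replicates 2 and 3, against 13.6 to 31.5 CPM, and Epx and Prg3 were at 0 there. The surface receptor Siglecf had 12.9 and 10.1 CPM in these replicates, against 4.14 CPM in Control replicate 1, 8.5 to 10.9 CPM in IgE+BSA and 3.82 to 5.55 CPM with luteolin. Dendritic cell markers summed to 51.4 and 53.1 CPM in Control replicates 2 and 3 and to 64.2 to 84.9 CPM in the others. The 8 mast cell markers summed to 50180 and 50940 CPM in these replicates, to 71560 CPM in Control replicate 1 and to 50970 to 70460 CPM in the stimulated groups. The 8 macrophage markers summed to 303 to 312.5 CPM in Control and to 337 to 369 CPM in both stimulated groups, with C1qa at 1 count in total. T cell and fibroblast markers did not exceed 0.98 CPM, B cell markers summed to 2.40 to 3.48 CPM, and Cd3e, Ms4a1 and Siglech were at 0. The comparisons of the members with Control are therefore also given against replicates 2 and 3 alone and against replicate 1 alone. The second of these is a fit that takes its spread from the other group. In bulk RNA, fewer cells of a type and less RNA per cell cannot be told apart.

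**Figure D1:**
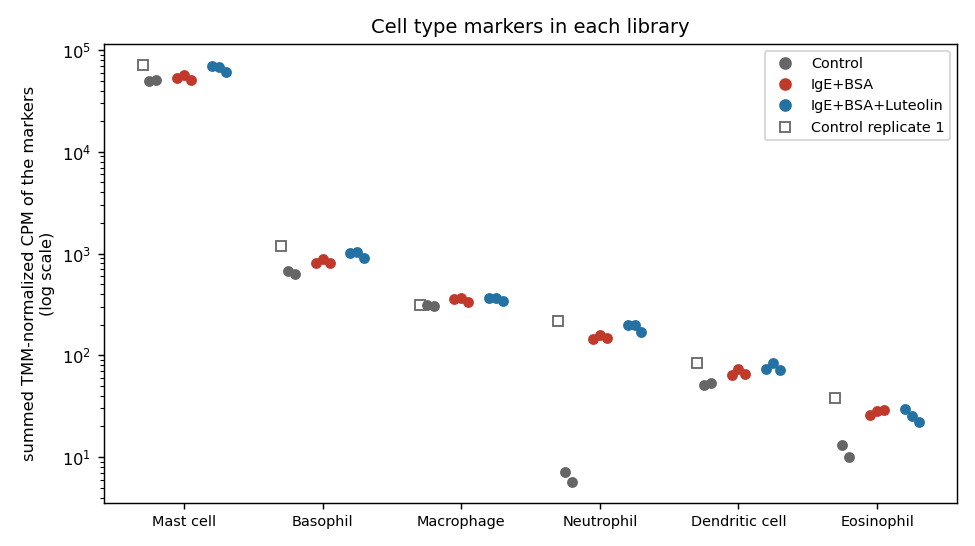
Summed TMM-normalized CPM (log scale) of the markers of 6 cell types, with 1 point per library and Control replicate 1 as an open square. Neutrophil markers sum to 7.07 and 5.69 CPM in Control replicates 2 and 3 and to at least 145 CPM in the other 7 libraries, while macrophage markers lie between 303 and 312.5 CPM in Control and between 337 and 369 CPM in both stimulated groups.

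All 9 members passed the filter, a median CPM above 1. Csf2, Il3 and Areg did so through the stimulated libraries, since all were under 1 CPM in Control replicates 2 and 3. Levels can be compared between genes only per length, here as CPM per kb of annotated exon, mean ± SD with n = 3. In IgE+BSA the order of these levels was Lif (578 ± 24.5), Tgfb1 (138 ± 1.0), Csf1 (109 ± 19.5), Vegfa (75.5 ± 2.93), Csf2 (72.5 ± 2.40), Hbegf (19.1 ± 0.60), Areg (16.9 ± 1.14), Il3 (3.37 ± 1.52) and Pdgfa (1.1 ± 0.071). Vegfa and Csf2 were the only neighbours in that order whose libraries overlapped. In Control the order of levels per kb began with Lif (109 ± 44.0), Tgfb1 (101 ± 20.8), Vegfa (51.0 ± 5.21) and Csf1 (34.9 ± 12.5), where Lif overlapped with Tgfb1 and Vegfa with Csf1. The remaining levels per kb in Control ran from Hbegf (4.25 ± 0.495) through Pdgfa (2.38 ± 0.551), Csf2 (1.88 ± 3.01) and Areg (1.32 ± 1.60) to Il3 (0.181 ± 0.313), and the last 4 overlapped with their neighbours. With luteolin, Tgfb1 headed the order at 124.5 ± 2.44 CPM per kb, above Lif (103 ± 11.9) and Vegfa (35.4 ± 1.60). Areg (10.5 ± 1.20 CPM per kb) then lay above Csf1 (7.05 ± 0.283) and Csf2 (5.17 ± 0.466), both of which had been above it in IgE+BSA. Hbegf (3.84 ± 0.515), Il3 (2.78 ± 0.554) and Pdgfa (1.39 ± 0.069) closed the order, with only Hbegf and Il3 overlapping. Per kb of the longest transcript the order in IgE+BSA was the same, but Tgfb1 (198) stood above Lif (117) in Control, and Hbegf (6.43) above Csf2 (5.17) with luteolin. Lif alone took 0.226% to 0.244% of all counts in IgE+BSA.

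The genes lie on 6 chromosomes of GRCm38. Il3 (chr11:54265303-54267277) and Csf2 (chr11:54247271-54249667) are neighbours on the minus strand, with 15635 bases between them. Lif (chr11:4257557-4272514) is far from both on the same chromosome. The others are Csf1 (chr3:107741048-107760469), Vegfa (chr17:46016993-46032369), Areg (chr5:91139599-91148432), Pdgfa (chr5:138976014-138997370), Tgfb1 (chr7:25687002-25705077) and Hbegf (chr18:36504927-36515805). Antisense genes overlap Csf2 (Gm12223, 0 to 0.683 CPM) and Pdgfa (6330403L08Rik, 1.46 to 5.11 CPM). The strand setting of the counting is not given in the sources used here. The antisense level is small beside Csf2 in the stimulated libraries but similar to that of Pdgfa, whose values are uncertain to that extent.

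**Figure D2:**
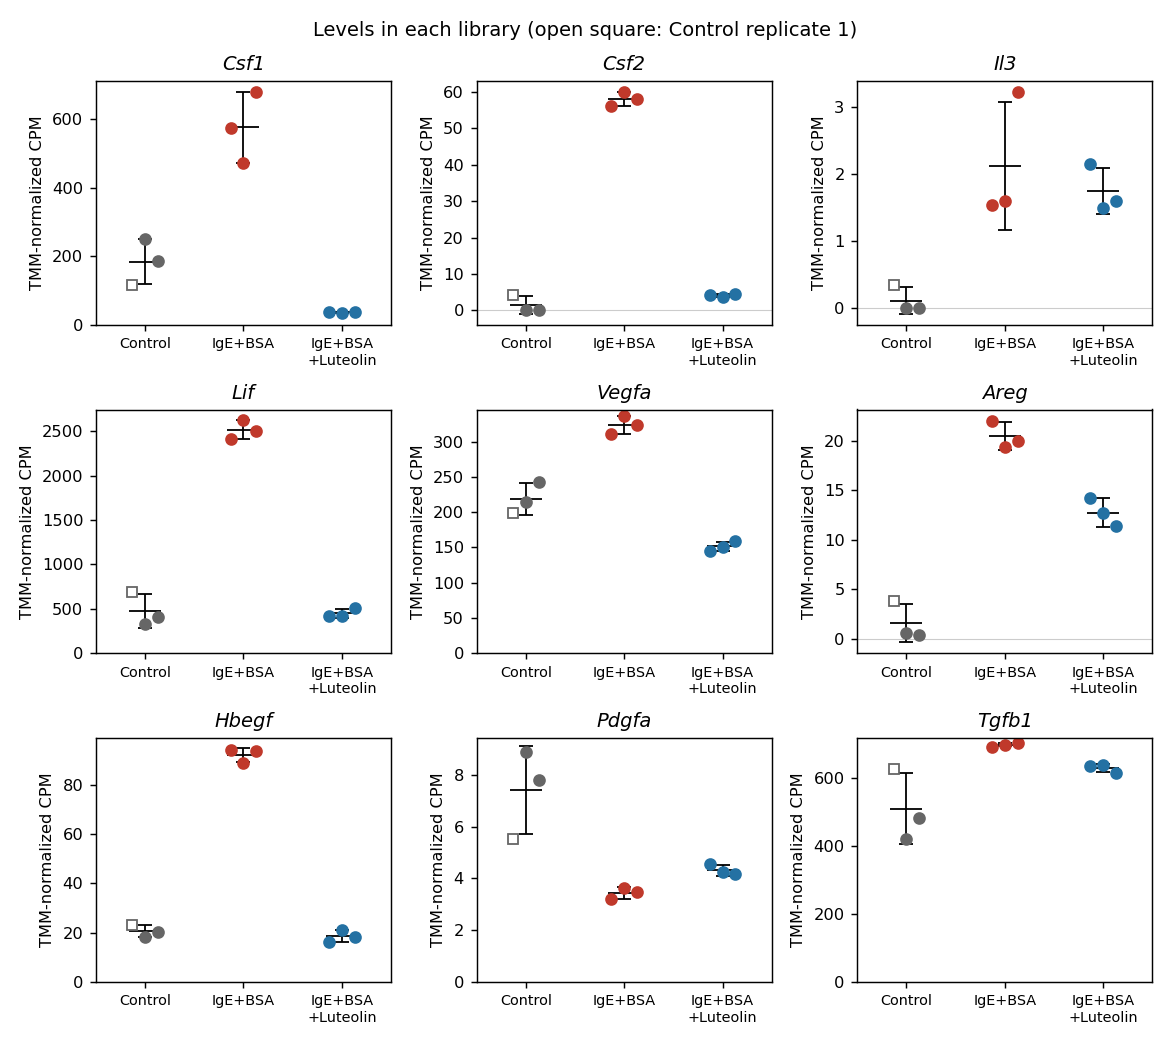
TMM-normalized CPM of the 9 genes by group, with 1 point per library, Control replicate 1 as an open square, and the mean with its SD (n = 3) in black. Lif reaches 2416 to 2627 CPM in IgE+BSA and 417 to 510 CPM with luteolin, whereas Il3 stays at 1.5 to 3.22 CPM in both stimulated groups.

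Stimulation was compared with Control first, to see which of these factors mast cells transcribe after IgE crosslinking. In edgeR's quasi-likelihood test with Benjamini-Hochberg adjustment, 6 of the 9 members rose (Csf1, Csf2, Lif, Vegfa, Areg and Hbegf), Pdgfa fell, and Il3 and Tgfb1 did not pass the threshold of 0.05. Of all 11560 genes tested, 2.25% were called higher and 1.02% lower. The libraries of the groups did not overlap for any member, with 8 higher and 1 lower, where 16.6% of all genes were higher and 12.1% lower without overlap. Csf2, Il3 and Areg passed the filter through the stimulated libraries, so a higher level there was favoured by the filter. They add no support in these counts. The members were also chosen with earlier results of these data known, so the counts describe them only. The counts depended strongly on the Control libraries. Against replicates 2 and 3 alone, 8 members rose and 1 fell, at 22.6% and 22.4% of all genes. Against replicate 1 alone, the library whose summed neutrophil, basophil and eosinophil markers were above those of the stimulated libraries, 7 rose and 0 fell, at 23.1% and 19.2% of all genes. Csf1, Csf2, Lif, Vegfa, Areg and Hbegf rose against every one of these 3 sets of Control libraries, which are the whole group and its parts. For these genes every stimulated library was above every Control library, so the shared direction was fixed in advance and adds no support. What share the marker difference has in the comparison with all 3 Control libraries was not tested. With any other single library left out in place of Control replicate 1, Lif and Hbegf remained called, together with Csf1 without Control replicate 2, and adjusted p reached 0.244 for Pdgfa, 0.208 for Vegfa, 0.20 for Areg, 0.161 for Csf2 and 0.139 for Csf1.

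Csf1, which encodes the macrophage growth factor M-CSF, had 117, 249 and 186 CPM in Control replicates 1, 2 and 3 and 574, 473 and 678 CPM in IgE+BSA. Every stimulated library was thus above every Control library, although the range was wide within both groups. The log2 fold change was 1.65 (SE 0.269, adjusted p = 0.0238), or 3.13-fold. It was 1.36 against Control replicates 2 and 3 (adjusted p = 3.86e-06) and 2.27 against replicate 1 (adjusted p = 9.98e-07).

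Csf2, which encodes GM-CSF, was nearly silent in Control replicates 2 and 3, with 1 and 3 counts (0.0969 and 0.124 CPM), but had 88 counts (4.28 CPM) in replicate 1. In IgE+BSA it had 56.1, 59.9 and 58.1 CPM. The stimulated libraries were tightly grouped, and Control replicate 1 lay at the level that Csf2 had with luteolin (3.72 to 4.45 CPM). The log2 fold change was 5.14 (SE 0.923, adjusted p = 0.0334) against all Control libraries and 3.74 (SE 0.146, adjusted p = 3.24e-09) against replicate 1. Against replicates 2 and 3 it rested on 4 counts, which gave a ratio of 501 with an exact counting interval of 196 to 1840. This interval leaves out the spread between libraries.

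Il3, whose product is the growth factor that these cultures receive in their medium, had 7 counts (0.341 CPM) in Control replicate 1 and 0 counts in replicates 2 and 3. It had 1.54, 1.60 and 3.22 CPM (34, 32 and 66 counts) in IgE+BSA, above every Control library but low. The log2 fold change of 3.99 (SE 0.886) did not pass the threshold (adjusted p = 0.0631). It passed with limma (adjusted p = 0.0383), DESeq2 (adjusted p = 0.00101), no filter and all 9 libraries in 1 fit (adjusted p = 0.0124), and did not with RLE scaling (0.0657), library size alone (0.0584), the other filter (0.0698) or the replicate block (0.141). It also did not in the 5 fits that left out a library other than Control replicate 1 (adjusted p from 0.16 to 0.245). It passed against Control replicate 1 (2.59, SE 0.695, adjusted p = 0.00992). Against replicates 2 and 3, the pooled Il3 level of IgE+BSA was 24.3 times a floor of 3 counts over both libraries. This value leaves out the spread of the stimulated libraries, so it is not a lower limit.

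Lif, a cytokine of the IL-6 family, was among the most abundant members in every group. It had 689, 325 and 403.5 CPM in Control replicates 1, 2 and 3 and 2416, 2627 and 2501 CPM in IgE+BSA. All 3 stimulated libraries were above every Control library. The log2 fold change was 2.41 (SE 0.282, adjusted p = 0.00573), or 5.30-fold, and it was called whichever single library was left out. It was 2.74 against Control replicates 2 and 3 and 1.85 against replicate 1. Vegfa, the endothelial growth factor, had 198, 215 and 242.5 CPM in Control and 311, 336 and 323.5 CPM in IgE+BSA. Its groups were separate, with a smaller difference than for the preceding genes (log2 fold change 0.56, SE 0.110, adjusted p = 0.0421, 1.48-fold). Scaling by library size alone gave 0.38 (adjusted p = 0.116), and the call held in 4 of 8 fits with another test, scaling, filter or design, with adjusted p from 5.18e-04 to 0.141.

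The EGF receptor ligands both rose. Hbegf had 23.1, 18.3 and 20.2 CPM in Control and 94.2, 89.0 and 94.0 CPM in IgE+BSA. Its Control replicate 1 was close to the other Control libraries, and the log2 fold change of 2.16 (SE 0.127, adjusted p = 2.52e-04, 4.48-fold) was nearly the same against replicates 2 and 3 (2.20) and against replicate 1 (1.98). Areg had 3.84, 0.581 and 0.371 CPM in Control, where replicate 1 stood apart as it did for Csf2, and 22.1, 19.4 and 20.0 CPM in IgE+BSA. Its log2 fold change was 3.60 (SE 0.706, adjusted p = 0.0427) against all Control libraries, 5.49 against replicates 2 and 3 (adjusted p = 3.05e-10) and 2.39 against replicate 1 (adjusted p = 1.98e-06). A direction held in each case, and the size did not.

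Pdgfa and Tgfb1 are the members with the lowest and one of the highest levels per kb in IgE+BSA. Pdgfa had 5.55, 8.91 and 7.83 CPM in Control and 3.21, 3.65 and 3.46 CPM in IgE+BSA, lower in all 3 stimulated libraries. Its log2 fold change of -1.10 (SE 0.224, adjusted p = 0.0482) was -0.71 against Control replicate 1 and did not pass there (adjusted p = 0.0581). Tgfb1 had 624, 419.9 and 481 CPM in Control and 691, 697 and 701 CPM in IgE+BSA, so that the stimulated libraries differed by little from each other or from Control replicate 1. The log2 fold change was 0.45 (SE 0.161, adjusted p = 0.179) against all Control libraries, 0.58 (adjusted p = 2.68e-05) against replicates 2 and 3 and 0.14 (adjusted p = 0.175) against replicate 1.

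**Figure D3:**
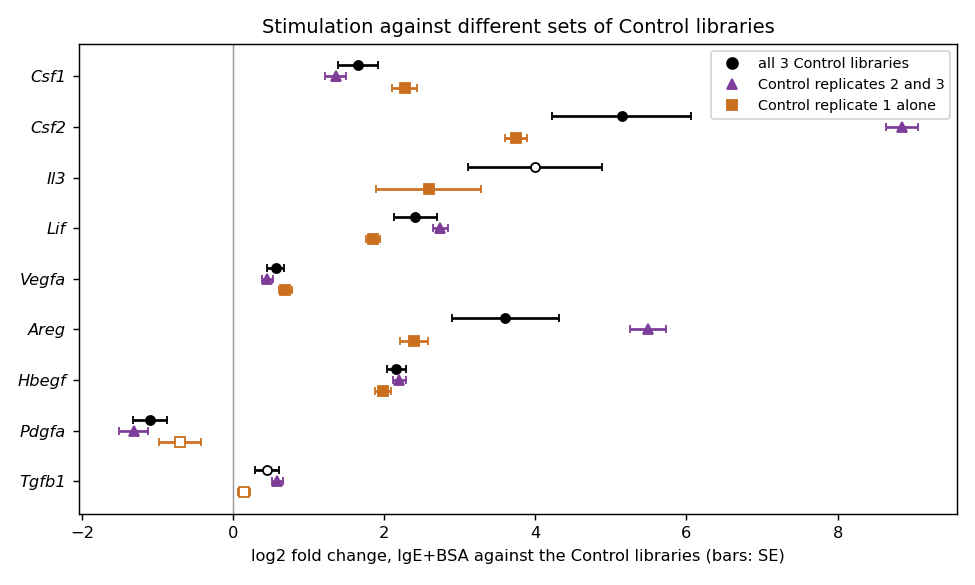
Log2 fold change of IgE+BSA against all 3 Control libraries, against replicates 2 and 3, and against replicate 1 alone, with SE bars and filled symbols where the adjusted p was under 0.05. The values for Csf2 (5.14 and 3.74) and Areg (3.60, 5.49 and 2.39) move with the Control libraries while those for Hbegf (2.16, 2.20 and 1.98) do not. Il3 against replicates 2 and 3 is not drawn because both were at 0.

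Luteolin in stimulated cells was the comparison the study turned on, and it does not involve the Control libraries. Cell type markers also moved in it. Of 8 mast cell markers 4 rose and 2 fell, with sums of 50970 to 56730 CPM in IgE+BSA and 60860 to 70460 CPM with luteolin. Both basophil markers and 2 of 7 neutrophil markers rose, and 1 of 4 eosinophil markers fell. Their part in the members' changes was not tested. Between IgE+BSA+Luteolin and IgE+BSA, 7 of the 9 members fell (Csf1, Csf2, Lif, Hbegf, Vegfa, Areg and Tgfb1), 0 rose, and Il3 and Pdgfa did not pass the threshold. Of all genes tested, 21.9% were called lower and 18.1% higher. The libraries did not overlap for 8 members, 7 lower and 1 higher, where 26.2% of all genes were lower and 24.1% higher without overlap. The members' median log2 fold change was -1.09, and that of all genes tested 0.02. The members were chosen with earlier results of these data known, so these counts and medians describe them only. Scaled by library size alone the median of all genes was 0.13, and the split of calls turned from 2097 higher and 2527 lower to 3857 higher and 1767 lower. Under that scaling the 6 members other than Tgfb1 still fell. The residual levels ranged from 6.48% of IgE+BSA for Csf1 to 90.1% for Tgfb1.

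Csf1 and Csf2 fell most. Csf1 had 37.5, 35.7 and 38.6 CPM with luteolin, against 473 to 678 CPM in IgE+BSA, a log2 fold change of -3.95 (SE 0.105, adjusted p = 1.35e-14). Csf2 had 4.24, 3.72 and 4.45 CPM, or 91, 92 and 92 counts, against 1192 to 1240 counts in IgE+BSA, a log2 fold change of -3.81 (SE 0.098, adjusted p = 9.78e-15). These 2 were left at 6.48% and 7.13% of their stimulated level, with no overlap and little spread between the luteolin libraries. Lif had 423, 417 and 510 CPM, 17.9% of the stimulated mean, with a log2 fold change of -2.48 (SE 0.0729, adjusted p = 4.39e-14). Hbegf had 16.3, 21.2 and 18.3 CPM, 20.1% of the stimulated mean, with a log2 fold change of -2.31 (SE 0.0857, adjusted p = 8.11e-13). All 4 genes kept these calls whichever library was left out.

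Vegfa and Areg fell less. Vegfa had 146, 149.9 and 159 CPM with luteolin, 46.9% of the stimulated mean (log2 fold change -1.09, SE 0.0574, adjusted p = 9.75e-11). Areg had 14.3, 12.7 and 11.4 CPM, 62.3% of the stimulated mean (log2 fold change -0.68, SE 0.110, adjusted p = 1.38e-04), and it lost its call with all 9 libraries in 1 fit (adjusted p = 0.416). The EGF receptor ligands thus lay apart in what remained, since the luteolin libraries had 17.6% to 23% of the IgE+BSA mean of Hbegf and 55.4% to 69.6% of that of Areg, a difference that was not tested. Tgfb1 had 633, 636 and 613.5 CPM, just under the 691 to 701 CPM of IgE+BSA. Its change of -0.15 (SE 0.0501, adjusted p = 0.0281) was -0.03 (adjusted p = 0.559) when libraries were scaled by size alone, and passed the threshold in 1 of the 6 fits that left out a library, with adjusted p from 0.031 to 0.0792.

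Il3 and Pdgfa were the members for which no change was called. Il3 had 2.14, 1.5 and 1.60 CPM with luteolin (46, 37 and 33 counts), within the 1.54 to 3.22 CPM of IgE+BSA apart from 1 library just below. Its log2 fold change was -0.28 (SE 0.334, adjusted p = 0.536), and it was 0.15 without IgE+BSA replicate 3, so the direction rests on that library. Pdgfa had 4.57, 4.25 and 4.16 CPM, all above the 3.21 to 3.65 CPM of IgE+BSA, with a log2 fold change of 0.33 (SE 0.200, adjusted p = 0.196). At 32 to 66 counts per library, a small change of Il3 was not detectable.

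The neighbours Il3 and Csf2 can be set side by side as counts within a library, which needs no scaling. IgE+BSA had 36.5, 37.4 and 18.1 counts of Csf2 per count of Il3. IgE+BSA+Luteolin had 1.98, 2.49 and 2.79, and Control replicate 1 had 12.6. The stimulated libraries were all above the luteolin libraries. No test was applied to these ratios.

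**Figure D4:**
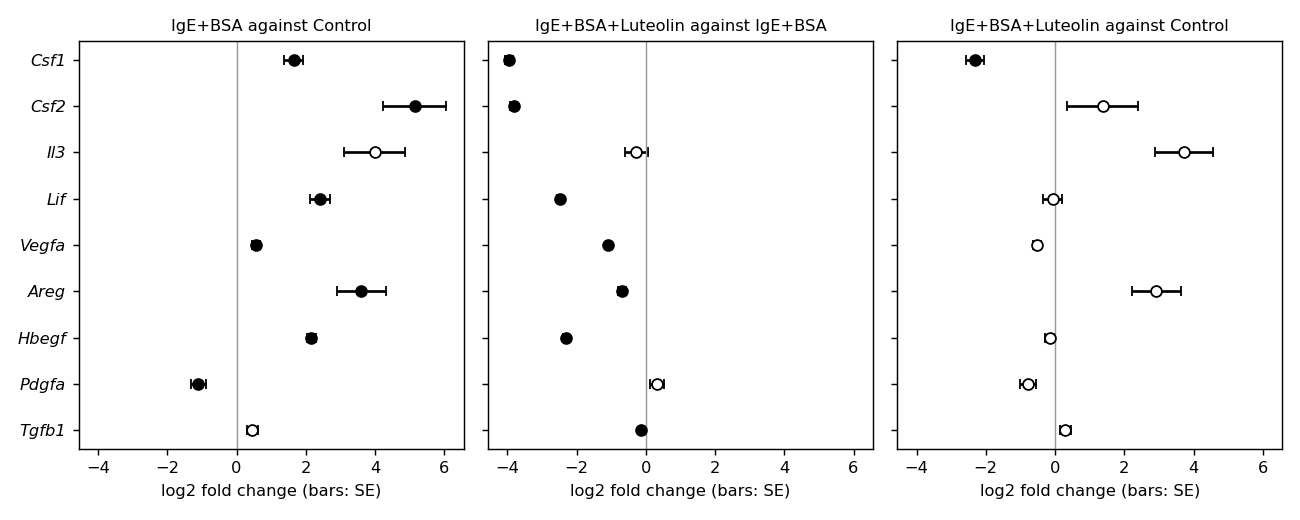
Log2 fold change with its SE for the 9 genes in the 3 comparisons, filled where the adjusted p was under 0.05. Against IgE+BSA, luteolin values run from -3.95 for Csf1 to 0.33 for Pdgfa. Error bars are widest in both comparisons with Control, where Csf1 is the only member called with luteolin.

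Whether the stimulated cells with luteolin returned to the untreated level was addressed by the comparison of IgE+BSA+Luteolin with Control. Csf1 fell and the other 8 members did not pass the threshold, where 2.75% of all genes tested were called lower and 0.285% higher. Against Control replicates 2 and 3, 5 members were higher and 3 lower, at 29.9% and 30.1% of all genes. Against replicate 1 alone, 2 were higher and 3 lower, at 11.6% and 9.55%. The libraries did not overlap for 5 members, 2 higher (Il3 and Areg) and 3 lower (Csf1, Vegfa and Pdgfa), where 13.6% of all genes were higher and 14.9% lower without overlap. Il3 and Areg passed the filter through the stimulated libraries, which favours a higher level there. The level of Csf1 with luteolin was below every Control library, at 20.2% of the Control mean (log2 fold change -2.31, SE 0.263, adjusted p = 0.0106), and it was lower against either set of Control libraries (-2.55 with adjusted p = 3.27e-12, and -1.66 with adjusted p = 3.60e-09). It lost the call when any one luteolin library was left out, with adjusted p up to 0.0994.

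Lif and Hbegf were near the Control level with luteolin, with log2 fold changes of -0.07 (SE 0.263, adjusted p = 0.879) and -0.15 (SE 0.152, adjusted p = 0.551). For Lif the direction depended on the Control libraries, at 0.29 (adjusted p = 0.014) against replicates 2 and 3 and -0.61 (adjusted p = 3.50e-04) against replicate 1. Vegfa lay below every Control library with luteolin (log2 fold change -0.53, SE 0.113, adjusted p = 0.0548). It passed against replicates 2 and 3 (-0.61, adjusted p = 2.11e-06) and against replicate 1 (-0.39, adjusted p = 0.00339).

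Il3 and Areg lay above every Control library with luteolin. Areg had a log2 fold change of 2.93 (SE 0.711, adjusted p = 0.0768), and it was called against replicates 2 and 3 (4.84, adjusted p = 4.24e-10) and against replicate 1 (1.73, adjusted p = 8.44e-05). With all 3 Control libraries it was called by DESeq2 (adjusted p = 7.68e-04), without the filter and with all 9 libraries in 1 fit (adjusted p = 0.0144). Il3 had 3.72 (SE 0.837, adjusted p = 0.0641) against all 3 Control libraries and 2.34 against replicate 1. With all 3 it was called by limma (adjusted p = 0.0448), by DESeq2 (adjusted p = 0.0015), without the filter and with all 9 libraries in 1 fit (adjusted p = 0.0175). Its pooled level with luteolin was 20.0 times a floor of 3 counts over replicates 2 and 3, without the spread between libraries. Csf2 overlapped with Control through replicate 1. Its value was 1.38 (SE 1.02, adjusted p = 0.427) against all 3 libraries and -0.05 against replicate 1. Against the 4 counts of replicates 2 and 3 the ratio was 35.6 (exact counting interval 13.7 to 131, without the spread between libraries). Pdgfa and Tgfb1 had -0.78 (SE 0.225, adjusted p = 0.11) and 0.30 (SE 0.149, adjusted p = 0.273), and both values were smaller against replicate 1 (-0.36 and 0.01). Against replicates 2 and 3 both were called (-0.95 with adjusted p = 3.70e-04, and 0.47 with adjusted p = 2.91e-05). The comparisons with stimulated and untreated cells share libraries, so they are not independent of each other.

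The first bases of 4 genes are shown as examples of genes that luteolin left at a low or a higher share of the stimulated mean. They are Csf1 (6.48%) and Lif (17.9%), and Areg (62.3%) and Il3 (82.4%). Each is RefSeq's sequence for GRCm38.p6 from 250 bases before to 50 bases after the start site, 5′ to 3′ on the gene's strand, with the matches to the motifs searched in capitals. RefSeq held such windows for 8 of the 9 members.
Csf1, chr3:107760420-107760719, minus strand: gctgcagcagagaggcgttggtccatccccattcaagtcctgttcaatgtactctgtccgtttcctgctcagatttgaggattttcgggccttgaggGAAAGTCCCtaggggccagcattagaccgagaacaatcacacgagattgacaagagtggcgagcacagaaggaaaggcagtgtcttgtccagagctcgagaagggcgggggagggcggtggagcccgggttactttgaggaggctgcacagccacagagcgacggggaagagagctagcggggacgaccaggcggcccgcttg
Lif, chr11:4257318-4257617, plus strand: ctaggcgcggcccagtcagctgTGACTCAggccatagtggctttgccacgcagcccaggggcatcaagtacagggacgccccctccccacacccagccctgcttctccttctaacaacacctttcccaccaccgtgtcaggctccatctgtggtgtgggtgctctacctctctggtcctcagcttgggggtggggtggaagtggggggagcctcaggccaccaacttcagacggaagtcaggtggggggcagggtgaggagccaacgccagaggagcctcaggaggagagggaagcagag
Areg, chr5:91139349-91139648, plus strand: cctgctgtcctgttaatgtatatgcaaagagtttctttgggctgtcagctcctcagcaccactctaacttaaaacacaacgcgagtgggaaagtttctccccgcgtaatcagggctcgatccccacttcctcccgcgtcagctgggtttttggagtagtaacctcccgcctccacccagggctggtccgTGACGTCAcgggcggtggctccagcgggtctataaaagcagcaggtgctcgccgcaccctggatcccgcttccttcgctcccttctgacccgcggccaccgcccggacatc
Il3, chr11:54267230-54267529, minus strand: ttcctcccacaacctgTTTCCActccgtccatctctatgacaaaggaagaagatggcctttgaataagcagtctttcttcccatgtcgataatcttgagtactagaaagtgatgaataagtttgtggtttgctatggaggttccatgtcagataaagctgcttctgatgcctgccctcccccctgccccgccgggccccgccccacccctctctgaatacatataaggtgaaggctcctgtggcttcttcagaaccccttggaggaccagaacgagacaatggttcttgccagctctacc
The motifs were searched on both strands. They were TGANTCA (AP-1), TGACGTCA (cyclic AMP response element, CRE), GGGANTTTC (NF-kB type), TGGAAA (NFAT core), GCGTGGGNG (EGR) and ACGTG (hypoxia-inducible factor core). The capitals mark an NF-kB-type match 153 bases before the start of Csf1, an AP-1 match 228 bases before that of Lif, a CRE 61 bases before that of Areg and an NFAT core 234 bases before that of Il3. Of all 32851 windows of this length, 1.11% held the NF-kB-type motif, 7.81% the AP-1 motif, 1.79% the CRE, 21.4% the NFAT core, 1.90% the EGR motif and 19.6% the hypoxia-inducible factor core. Among the windows not printed, Tgfb1 held an EGR match 122 bases before the start, and Csf2, Vegfa and Pdgfa held an NFAT core. Both windows of Pdgfa lie at starts inside the gene as GENCODE annotates it. The second window of Vegfa, also at a start inside the gene, held the hypoxia-inducible factor core. The RefSeq start of Csf2 lies 232 bases upstream of the GENCODE start, so that its window ends 183 bases short of it and is not printed. These are matches of letters, with no measure of binding in these data.

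Other secreted factors were taken from a list of 40 cytokine and growth factor genes, of which 39 were in the counts and 12 passed the filter. With luteolin against IgE+BSA, 8 of the 12 fell, 0 rose and 4 did not pass, beside 21.9% of all genes lower and 18.1% higher. The median log2 fold change of the 12 was -0.70. Of the IL-6 family in this list, Il6 and Osm were tested and fell, while Il11, Ctf1 and Cntf were too low to test. Il6, a cytokine of acute inflammation, had 1510 to 1584 CPM in IgE+BSA and 302 to 327 CPM with luteolin (-2.29, SE 0.055, adjusted p = 4.60e-15). Osm, which encodes oncostatin M, had 800.2 to 944 CPM and 233 to 271.5 CPM (-1.75, SE 0.072, adjusted p = 3.28e-12). Inhba, a subunit of activin A, was low but had the greatest fall of the list, from 6.33 to 12.2 CPM down to 0.699 to 1.69 CPM (-2.80, SE 0.296, adjusted p = 1.23e-06). Gdf15 (-1.09), Egf (-1.26), Bmp2 (-0.79), Fgf2 (-0.62) and Hgf (-0.49) also fell, with adjusted p from 3.53e-06 to 0.00777. In these genes the luteolin libraries were below the stimulated libraries throughout. With stimulation against Control, Il6 (2.64, SE 0.241, adjusted p = 0.00202) and Inhba (2.79, SE 0.385, adjusted p = 0.012) rose and the other 10 did not pass. Of all genes, 2.25% were called higher there. Against Control replicates 2 and 3, 6 of the 12 rose, as many as against replicate 1, beside 22.6% and 23.1% of all genes. No gene of the list passed between luteolin and Control in edgeR's test, limma or DESeq2, 1 had an unadjusted p under 0.05, and the median was -0.04. Against Control replicates 2 and 3, 2 were higher and 3 lower with luteolin, beside 29.9% and 30.1% of all genes.

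Of 20 receptor genes for these factors, 11 passed the filter. The subunits that bind GM-CSF and IL-3 were present. Csf2rb had 2515 to 3249 CPM as group means and Csf2rb2, its near-identical neighbour, 4899 to 5427 CPM, and reads may be split between both. Il3ra had group means of 66.2 to 71.3 CPM and Csf2ra 20.2 to 27.0 CPM. With luteolin 3 of the 11 fell by little, Csf2ra (-0.40, SE 0.103, adjusted p = 0.00594), Csf2rb (-0.23, SE 0.0521, adjusted p = 0.00255) and Csf2rb2 (-0.13, SE 0.050, adjusted p = 0.0458), beside 21.9% of all genes, while the median of the list was 0.03. None of the 11 passed between either stimulated group and Control in edgeR's test, limma or DESeq2, with 1 at an unadjusted p under 0.05 for stimulation and 2 with luteolin. Against replicates 2 and 3, 2 rose and 3 fell with stimulation, beside 22.6% and 22.4% of all genes, and against replicate 1, 2 rose and 1 fell. With luteolin 1 was higher and 5 lower against replicates 2 and 3, beside 29.9% and 30.1% of all genes. Among the other receptors, the TGF-beta receptor genes Tgfbr1, Tgfbr2 and Tgfbr3 had 59637, 40196 and 40 counts over all 9 libraries. The VEGF co-receptor Nrp1 had 6343. Such counts are not scaled by length and do not rank the genes. Of the EGF receptor family, Erbb3 had 951 counts, Egfr 5, Erbb2 4 and Erbb4 0. Pdgfrb and Lifr had 151 and 157 counts, and Pdgfra, Kdr and Flt1 had 5, 3 and 1. The M-CSF receptor Csf1r was low, at 4.62 to 10.3 CPM.

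Among 20 genes that cleave, store or activate these ligands, 12 passed the filter. Furin, the protease that matures pro-TGF-beta and other growth factor precursors, had 2642 to 2993 CPM in Control, 4483 to 4936 CPM in IgE+BSA and 2034 to 2168 CPM with luteolin. It rose with stimulation (0.72, SE 0.111, adjusted p = 0.0194) and fell with luteolin (-1.15, SE 0.0534, adjusted p = 1.70e-11). Thbs1, an activator of latent TGF-beta, rose (1.45, SE 0.295, adjusted p = 0.0482) and fell (-0.96, SE 0.0592, adjusted p = 8.40e-10) likewise. Rhbdf2, the partner that carries the sheddase ADAM17 to the cell surface, had 73.5 to 102 CPM in IgE+BSA and 43.3 to 45.3 CPM with luteolin (-0.98, SE 0.0922, adjusted p = 2.70e-07). It was also below Control with luteolin (-0.55, SE 0.102, adjusted p = 0.039). Adam17 itself, which releases Areg and Hbegf from the membrane, rose with luteolin (0.26, SE 0.0598, adjusted p = 0.00261), and Nrros, which tethers latent TGF-beta 1, fell (-0.64, SE 0.0595, adjusted p = 2.20e-07). In all 2 of 12 rose with stimulation, beside 2.25% of all genes. With luteolin against IgE+BSA 1 rose and 4 fell, beside 18.1% and 21.9% of all genes. The medians were 0.11 with stimulation and -0.07 with luteolin. Against Control replicates 2 and 3, 4 rose and 2 fell with stimulation, beside 22.6% and 22.4% of all genes, and against replicate 1, 5 rose and 0 fell. With luteolin 2 were higher and 3 lower against replicates 2 and 3, beside 29.9% and 30.1% of all genes.

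**Figure D5:**
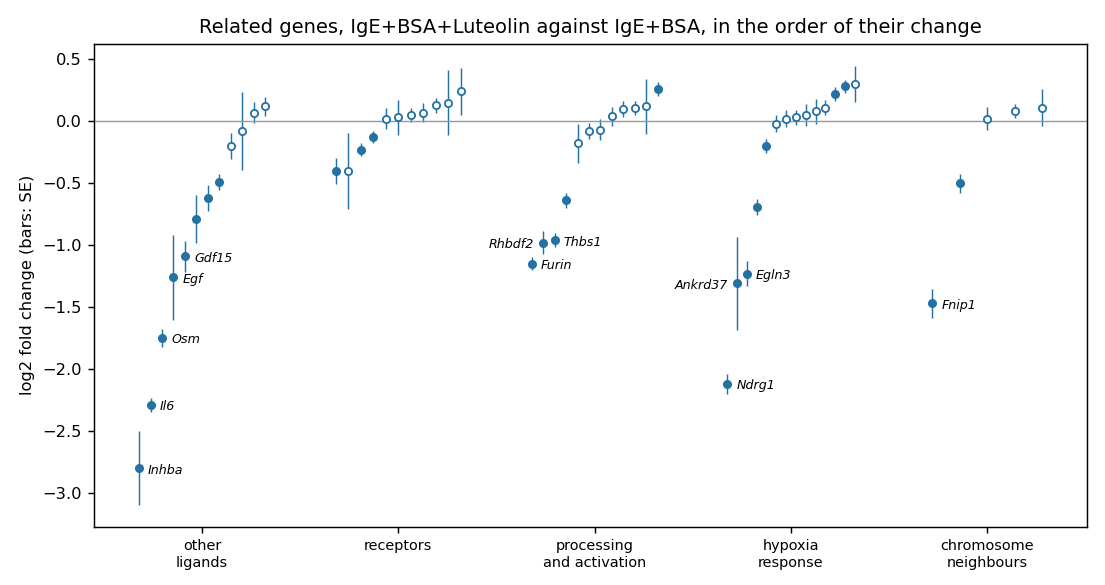
Log2 fold change with its SE, IgE+BSA+Luteolin against IgE+BSA, for the tested genes of 5 lists, filled where the adjusted p was under 0.05. Other ligands reach -2.80 (Inhba) and -2.29 (Il6), and receptors lie between -0.40 and 0.24.

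Vegfa is a known target of hypoxia-inducible factors, so 16 genes of the hypoxia response were examined, of which 14 were tested. With luteolin 5 fell and 2 rose, beside 21.9% and 18.1% of all genes, with a median of 0.03. Ndrg1, a stress-responsive gene, had 195 to 247 CPM in IgE+BSA and 50.5 to 53.4 CPM with luteolin (-2.12, SE 0.0799, adjusted p = 9.84e-13). Hif1a, the oxygen-sensing transcription factor subunit, fell by 0.69 on the log2 scale (SE 0.0655, adjusted p = 3.13e-07), and Egln3, a hydroxylase that marks it for degradation, fell by 1.23 (SE 0.101, adjusted p = 4.79e-08). Ankrd37 (-1.31, adjusted p = 0.011) and the glucose transporter Slc2a1 (-0.20, adjusted p = 0.0125) fell, while the mitophagy gene Bnip3 (0.22, adjusted p = 0.00556) and the collagen hydroxylase P4ha1 (0.28, adjusted p = 6.65e-04) rose. The list thus moved in both directions. With stimulation Hif1a (0.90, adjusted p = 0.0236) and Ndrg1 (1.44, adjusted p = 0.00565) rose and 12 did not pass, beside 2.25% of all genes called higher. DESeq2, however, called 6 of the 14. In the same comparison 8 rose and 3 fell against Control replicates 2 and 3, beside the same shares of all genes, and 5 rose and 4 fell against replicate 1. Slc2a1 was the gene of this list that passed between luteolin and Control (-0.65, SE 0.120, adjusted p = 0.0389), although DESeq2 called 7 of the 14. With luteolin 7 were higher and 5 lower against Control replicates 2 and 3, beside 29.9% and 30.1% of all genes.

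Of the 5 protein-coding genes on each side of the Il3 and Csf2 pair, 5 of 10 were tested. Fnip1 (-1.47, SE 0.116, adjusted p = 2.40e-08) and Rapgef6 (-0.50, SE 0.0766, adjusted p = 8.03e-05) fell with luteolin, and 3 did not pass, beside 21.9% of all genes lower. None of the 5 passed against Control in edgeR's test, limma or DESeq2, with 0 at an unadjusted p under 0.05 for stimulation and 1 with luteolin. Against Control replicates 2 and 3, 1 was higher with stimulation, beside 22.6% of all genes, and 2 were lower with luteolin, beside 30.1%. The median of the 5 with luteolin was 0.02.

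The genes whose pattern was most like that of each member were found by Pearson's r of log2 CPM over the 9 libraries among all genes tested. These correlations are descriptions, since the libraries fall into 3 groups and every gene that follows the groups scores highly. Lif and Hbegf shared Dusp4, a phosphatase of MAP kinases, at r of 0.994 and 0.995. The others nearest to Lif were Plk3 (0.994) and Cish (0.992), and those nearest to Hbegf were Mapkapk2 and the early growth response gene Egr2 (both 0.992). Csf1 was most like Tnfaip2 (0.998), Sat1 and Spata2 (both 0.995), and Vegfa was most like the hexokinase gene Hk2 (0.997), Nlrp3 and Vps37b (both 0.992). Csf2 was most like Il1a (0.994), Thbs1 (0.993) and Perp (0.989). These genes had their highest group mean in IgE+BSA. Among those nearest to Csf1 and Vegfa, Control lay between both stimulated groups, as for Tnfaip2 with 115, 220 and 44.1 CPM as the means of Control, IgE+BSA and luteolin. Genes with both stimulated groups on the same side of Control, and with Control replicate 1 nearer to them than replicates 2 and 3, were found near Il3 (Dnajc21 at 0.987, Ext1 and Cybb), Areg (Pilra at 0.991, Tasp1 and Papss2), Tgfb1 (Focad at 0.986, Gpr183 and Lrrc47) and, with lower levels in stimulated cells, Pdgfa (LTO1 at 0.988, Sp100 and Mcu). Among the members, r was 0.980 for Lif with Hbegf, 0.975 for Csf1 with Vegfa, 0.954 for Areg with Il3 and -0.976 for Areg with Pdgfa, while it was -0.018 for Csf1 with Il3.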

How the data were processed

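Libraries were made by the authors with a stranded mRNA kit, sequenced on an Illumina instrument, and the reads filtered and aligned with STAR 2.7.0f to mm10 (per the labels). The deposited file holds raw counts of reads per Ensembl gene, neither normalized nor filtered. The annotation release and strand setting are not given in the sources used here. All 9 columns were assigned to groups by the labels.

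Genes with a median CPM above 1 over the 9 libraries (11560 of 47643) were tested in R 4.3.3 with edgeR 4.0.16 (quasi-likelihood test, TMM factors, two-sided, Benjamini-Hochberg adjustment, threshold 0.05), separately on the 6 libraries of each comparison. The study's own method was limma. limma 3.58.1, DESeq2 1.42.0, other scalings, filters, a replicate block, a 2-fold threshold and each replicate left out were alternatives. CPM values are TMM-normalized over the 9 libraries. SE is the log2 fold change over the root of its F. Identifiers were matched to GENCODE vM21 (47224 genes), which gave symbols, coordinates and exon lengths. The method was tested on simulated data. No replicate pair agreed within sampling noise (chi-square of at least 4.05 for each degree of freedom). Genes named by rule are the 9 members, genes of 5 lists that passed the threshold in any comparison, and the 3 genes most correlated with each member at a pseudocount of 0.5 CPM. The receptors and IL-6 family genes named without passing, or without a test, were chosen after their values were seen. Members and lists were chosen with earlier results of these data known. Control replicate 1 as the sole Control library was added after seeing the marker levels.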

Additional observations from a re-analysis of the deposited data

How the results depend on the processing

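The number of members called for IgE+BSA against Control was 7 and ranged from 2 to 9 with each library left out in turn (90 to 5207 of all 11560 genes, against 378), and from 5 to 8 under the other settings. For luteolin against IgE+BSA it was 7, from 6 to 7 with each library left out (3242 to 5082 of all genes, against 4624) and from 5 to 7 otherwise. For luteolin against Control it was 1, from 0 to 8 with each library left out (2 to 6931 of all genes, against 351), and it was 2 with limma, 5 with DESeq2, 3 without the filter on low counts, 5 with all 9 libraries in 1 fit and 5 with Control replicate 1 as the sole Control library. Beside Csf1, limma called Il3, both DESeq2 and the fit of all 9 libraries called Il3, Vegfa, Areg and Pdgfa, and the fit without the filter called Il3 and Areg. The cause of these moves was not tested. The direction reversed for Il3 with luteolin against IgE+BSA without IgE+BSA replicate 3 (0.15, with -0.47 as the lowest value when another library was left out), for Lif with luteolin against Control without Control replicate 1 (0.29, with -0.28 as the lowest), and for Csf2 in the same comparison against Control replicate 1 alone (-0.05). Areg with luteolin against IgE+BSA lost its call with all 9 libraries in 1 fit (adjusted p = 0.416) and, at its size, under the 2-fold threshold. Over all genes, called numbers of 378, 4624 and 351 became 1105, 1093 and 1251 with all 9 libraries in 1 fit. With DESeq2, 378 and 351 became 1227 and 1379, and without the filter 604 and 793. With a 2-fold threshold the 3 numbers were 195, 649 and 226.

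Libraries with the same replicate number did not deviate together (correlations from -0.29 to 0.349), so the numbers were not taken as pairs. With the replicate number as a block, 5, 7 and 1 members were called in the 3 comparisons, Vegfa (adjusted p = 0.141) and Pdgfa (adjusted p = 0.123) being lost for stimulation, and 144, 5582 and 212 of all genes.

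In Control, Csf2, Il3 and Areg had 92, 7 and 94 counts over the 3 libraries, most of them in replicate 1, so that the size of their change with stimulation is limited by depth and by the Control libraries used.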
